A study of Homo sapiens with 24 samples.

Results

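The 10 genes described here encode the SMAD proteins that carry the TGFβ signal and the inhibitors that act on them: SMAD2, SMAD3, SMAD4, SMAD6, SMAD7, SKI, SKIL, SMURF1, SMURF2 and PMEPA1. They were chosen by name, with earlier results of these data known. Each gene's estimated counts and TPM (a level scaled by transcript length and library depth) were summed over its Ensembl transcripts. They are 10 of 34834 genes with a transcript in the tables, and all 10 were among the 17454 genes with enough counts to be tested. SK-MES1 is a human squamous cell carcinoma line of the lung. Cells were growth factor-depleted for 3 h and received 2 ng/ml TGFβ1 or nothing. Each arm has 3 replicates at each of 0, 8, 24 and 48 h, which makes 12 untreated libraries and 12 of the TGFβ arm. Both arms come from 1 cell line and both were depleted, so untreated cells had also been moved to depletion medium. The labels do not say whether TGFβ1 had touched the cells of the TGFβ arm at 0 h.

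TGFβ binds a pair of receptor kinases, the type I receptor phosphorylates SMAD2 and SMAD3, and these join SMAD4 and enter the nucleus to bind DNA. Several of the genes they switch on act back on the pathway: SMAD7 and SMAD6 block the receptors, SMURF1 and SMURF2 attach ubiquitin to receptors and SMADs, SKI and SKIL repress transcription on the SMAD complex, and PMEPA1 holds SMAD2 and SMAD3 away from the receptor. In epithelial cells the pathway is known for growth arrest and for the transition to a mesenchymal state. All measurements below are of RNA, and neither protein nor phosphorylation was measured in these files.

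The libraries held between 46613589 and 77964234 estimated counts. Replicate 2 of the TGFβ arm at 0 h and replicate 2 of that arm at 24 h lay farther from their groups than any other library, with SDs of 0.358 and 0.347 of the log2 deviation over genes against 0.244 to 0.315 in the other 22. Untreated replicate 2 was also the farthest of its group at 0 h and 24 h, with SDs of 0.312 and 0.31. Of 9 squamous markers, 5 reached a mean of 1 TPM in each arm. TP63 lay between 7.69 and 37.5 TPM over the 24 libraries, and PKP1, SERPINB5, KRT17 and SOX2 were the other 4, whereas KRT5, KRT14, KRT6A and DSG3 never exceeded 0.102 TPM. KRT17 had a median of 0.838 TPM in the untreated arm and 12.6 TPM in the TGFβ arm, and SOX2 of 4.51 and 1.18 TPM. KRT8, a keratin of simple epithelia, lay between 375 and 963 TPM. Of 4 leukocyte markers 2 reached a mean of 1 TPM in each arm, with CD68 between 7.64 and 40.2 TPM and PTPRC between 1.26 and 2.10 TPM, and CD3E was listed at 0 in every library. The 5 fibroblast markers summed to 192 to 306 TPM untreated and 188 to 2390 TPM in the TGFβ arm. Most of this was COL1A1, at 152 to 291 TPM and 179 to 2360 TPM. COL1A2 never exceeded 0.221 TPM. Medians in the untreated and TGFβ arms were 1.24 and 0.855 TPM for DCN and 7.01 and 6.38 TPM for LUM. For PDGFRB they were 4.85 and 11.0 TPM. The part of these markers' cells in the results was not tested. The file names carry 4 codes, 1 each for the early and late time points of each arm, so at any time point the code and the treatment cannot be told apart. Within an arm, a comparison of 0 h or 8 h with 24 h or 48 h crosses the codes, so time and code cannot be told apart there. What the codes stand for is not given in the sources used here. The study calls the 3 replicates biological.

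At 0 h none of the 10 genes differed between the arms, and from 8 h on most were higher in the TGFβ arm. In the limma voom test 7 of 10 passed an adjusted p of 0.01 at 8 h, all higher, where 16.4% of all tested genes passed in either direction and 9.12% were higher. At 24 h 8 of 10 passed, all higher, against 29.3% of all genes and 15.4% higher. At 48 h 9 passed, 8 higher and SMAD3 lower, against 32.6% of all genes, of which 16.1% were higher and 16.4% lower. The 10 genes had median log2 differences of 0.60, 0.69 and 1.02 at 8, 24 and 48 h, while those of all tested genes were −0.02, −0.02 and −0.01. In the moderated F-test over 8, 24 and 48 h 9 of the 10 passed, 8 with a higher mean, and SMAD2 did not. The same test passed 42.5% of all genes, 21% higher and 21.5% lower. At 0 h the limma voom test called 0 of 17454 genes (0%), and so 0 members. 801 genes had an unadjusted p under 0.05 there, among them PMEPA1 with a log2 difference of 0.10 (unadjusted p = 0.0299 from limma voom). The edgeR and DESeq2 fits called 0 of the 10 genes at 0 h, and 0 and 8 of all genes. In TPM every TGFβ library was above every untreated one for 7 of the 10 genes at 8 h, 8 at 24 h and 8 at 48 h, against 16.2%, 17.2% and 24.4% of all tested genes. It was below for SMAD3 at 24 h and for SMAD3 and SMAD2 at 48 h, against 23.2% and 30.7% of all genes. In RNA of whole cultures a change of level per cell and a change in the share of cells that express a gene cannot be told apart.

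**Figure D1:**
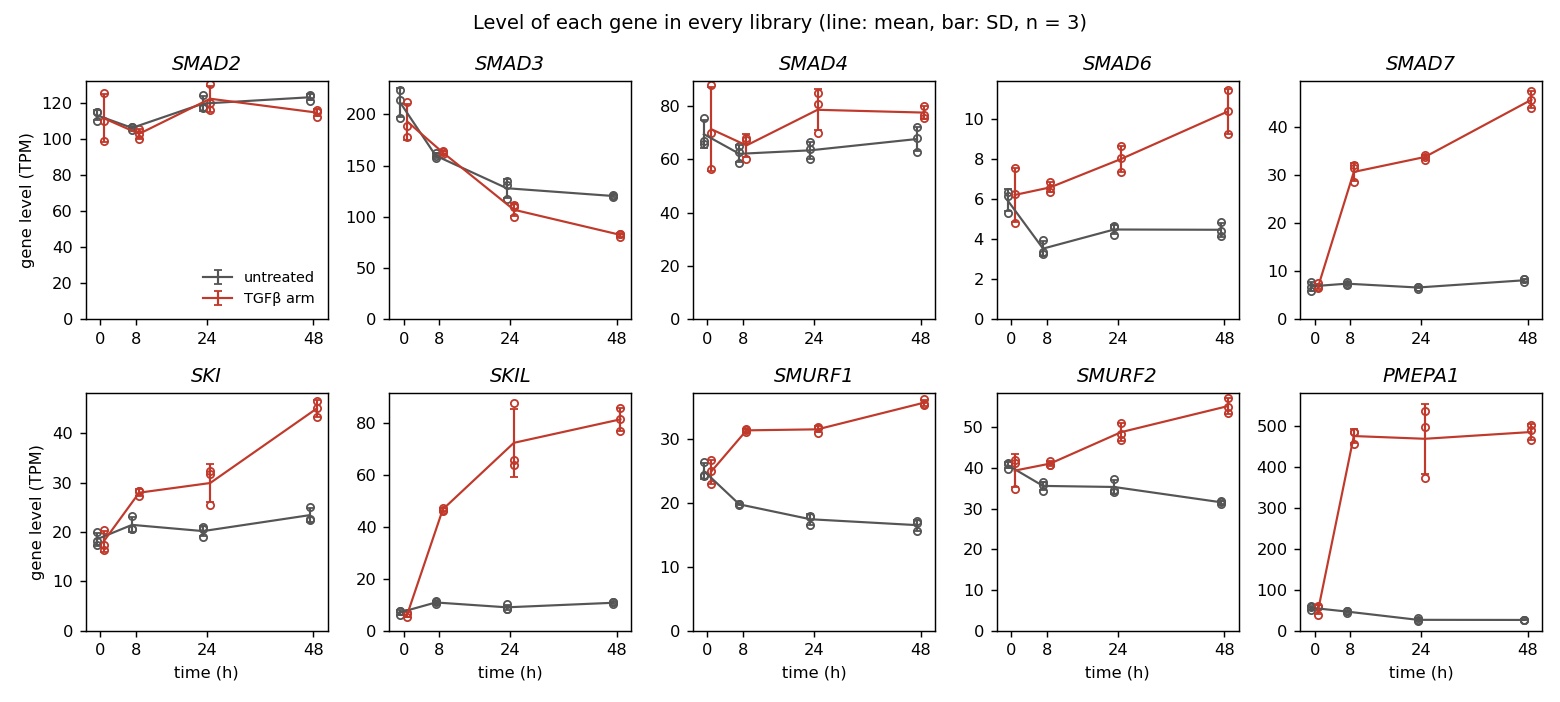
Level of each of the 10 genes in TPM (y axis, from 0) against time in hours (x axis), with a circle per library, lines through the group means and bars of 1 SD (n = 3), grey for untreated and red for the TGFβ arm. The arms overlap at 0 h in all panels, and PMEPA1, SKIL and SMAD7 are far apart from 8 h on, while SMAD2 stays between 99.1 and 130.6 TPM.

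Of the receptor-activated SMADs, SMAD3 fell with time in both arms and fell further with TGFβ, and SMAD2 stayed level. SMAD3 (ENSG00000166949, GRCh38 chromosome 15, 67063763 to 67195173, + strand) is the receptor-activated SMAD that binds DNA itself. In untreated cells it stood at 224.2, 196.9 and 213.7 TPM at 0 h and at 121.4, 119.1 and 120.4 TPM at 48 h. In the TGFβ arm it went from 188.7, 178.1 and 212.3 TPM to 83.6, 80.1 and 83.2 TPM over the same time. At 48 h each TGFβ library was below each untreated one, whereas at 0 h and 8 h the arms overlapped. The difference at 48 h was −0.37 ± 0.03 on the log2 scale of counts (estimate ± SE, limma voom adjusted p = 2.68e-09), a ratio of 0.771. With library sizes set by the study's 4 qRT-PCR reference genes it was −0.03 (adjusted p = 0.622), a scaling under which the median of all genes moved to 0.34.

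At 24 h the reading for SMAD3 depended on the scale. Its TPM was 111.4, 99.4 and 109.8 with TGFβ and 135.2, 117.4 and 131.1 without, with no overlap. The count-based log2 difference was −0.05 ± 0.03 (limma voom adjusted p = 0.178) and did not pass. On log2(TPM + 1) it was −0.26 (limma-trend adjusted p = 0.00241), and it turned to 0.30 when the 4 reference genes set the library sizes (adjusted p = 3.28e-06). SMAD3 at 8 h missed the threshold at a log2 difference of 0.11 ± 0.03 (adjusted p = 0.0122, limma voom).

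SMAD2 (ENSG00000175387, chromosome 18, 47808957 to 47931146, − strand) lacks direct DNA binding in its main isoform. Its level was 121.2, 123.9 and 124.5 TPM in untreated cells at 48 h and 115.3, 112.3 and 116.4 TPM with TGFβ. These values did not overlap, yet the count-based log2 difference was −0.07 ± 0.06 (limma voom adjusted p = 0.410), and at 8 h and 24 h it was 0.01 ± 0.06 and 0.05 ± 0.06. SMAD2 ranked 15786th of 17454 genes by the p of the F-test. The ratio of SMAD3 to SMAD2 in TPM was 1.87 ± 0.16 (SD, n = 3) in untreated cells at 0 h and 0.977 ± 0.022 at 48 h, and in the TGFβ arm it ended at 0.718 ± 0.006.

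SMAD4 (ENSG00000141646, chromosome 18, 51028528 to 51085045, + strand), the common partner of all receptor-activated SMADs, was higher with TGFβ at 24 h and 48 h by a small amount. At 24 h its level was 60.1, 66.4 and 63.8 TPM untreated and 70.0, 85.0 and 80.8 TPM with TGFβ. At 48 h it was 62.8, 67.9 and 72.1 TPM untreated and 76.8, 75.7 and 80.2 TPM with TGFβ. The lowest TGFβ library was above the highest untreated one at both times. The log2 differences were 0.31 ± 0.05 (adjusted p = 9.26e-05) and 0.26 ± 0.05 (adjusted p = 0.000458) by limma voom. On log2(TPM + 1) neither passed, with adjusted p of 0.0366 and 0.168 from limma-trend, and neither did the F-test (adjusted p = 0.0539). At 48 h the SMAD4 call was lost in limma voom with library totals (0.18, adjusted p = 0.0137) and with length-scaled counts (0.23, adjusted p = 0.0778) as well.

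Both inhibitory SMADs were higher with TGFβ from 8 h on, SMAD7 by the larger fold. SMAD7 (ENSG00000101665, chromosome 18, 48919853 to 48950965, − strand) brings ubiquitin ligases to the activated receptor. Untreated cells held 7.10, 7.68 and 7.33 TPM at 8 h and 8.30, 8.24 and 7.67 TPM at 48 h, and cells with TGFβ 31.9, 31.3 and 28.5 TPM at 8 h and 43.9, 47.4 and 45.4 TPM at 48 h. The arms were apart at all 3 later times and the lowest TGFβ library, at 28.5 TPM, was above every untreated library of any time, the highest of which held 8.30 TPM. SMAD7 was 3.93-fold higher at 8 h (log2 1.98 ± 0.05), 5.17-fold at 24 h and 5.54-fold at 48 h (log2 2.47 ± 0.05), with limma voom adjusted p of 5.43e-19 at 48 h.

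SMAD6 (ENSG00000137834, chromosome 15, 66702236 to 66782849, + strand), known best as an inhibitor of BMP signalling, had the lowest mean TPM of the 10 genes in every group. It had 3.37, 3.26 and 3.93 TPM in untreated cells at 8 h and 6.36, 6.52 and 6.84 TPM with TGFβ. In untreated cells the level had been 6.35, 5.30 and 6.14 TPM at 0 h, and it had been 7.53, 4.81 and 6.25 TPM in the TGFβ arm, so at 8 h untreated cells were below their own 0 h range and treated cells within theirs. By 48 h the TGFβ libraries had reached 9.25, 10.4 and 11.5 TPM against 4.83, 4.14 and 4.41 TPM untreated. SMAD6 was 1.85-fold higher at 8 h, 1.76-fold at 24 h and 2.41-fold at 48 h (log2 1.27 ± 0.08, limma voom adjusted p = 6.05e-11). SMAD6 rested on between 477 and 1237 estimated counts per library, few beside the 43161 to 63047 of PMEPA1 with TGFβ at 8 h and 24 h.

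SKIL and its relative SKI were both higher with TGFβ, SKIL by the larger fold. SKIL (ENSG00000136603, chromosome 3, 170357342 to 170396835, + strand) encodes SnoN, a repressor that SMAD signalling both degrades as a protein and induces as a gene. Its level was 11.0, 10.4 and 11.3 TPM in untreated cells at 8 h and 46.6, 46.4 and 47.5 TPM with TGFβ. At 24 h the TGFβ libraries held 63.9, 87.7 and 65.7 TPM, with replicate 2 above the other two, against 8.45, 10.2 and 8.53 TPM untreated. At 48 h they held 77.1, 81.5 and 86.0 TPM against 10.3, 11.1 and 11.0 TPM, so every TGFβ library from 8 h on was above all untreated ones. SKIL was 4.80-fold higher at 8 h, 9.28-fold at 24 h (log2 3.21 ± 0.10, and 3.09 without TGFβ replicate 2) and 8.55-fold at 48 h (limma voom adjusted p = 5.04e-16).

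SKI (ENSG00000157933, chromosome 1, 2227388 to 2310213, + strand), the proto-oncogene of the same family, was at 20.6, 20.6 and 23.2 TPM untreated and 28.3, 27.2 and 28.4 TPM with TGFβ at 8 h. At 48 h it was at 25.1, 22.7 and 22.5 TPM untreated and 46.6, 45.2 and 43.3 TPM with TGFβ. The arms did not overlap at 8, 24 or 48 h, and the gap was widest at 48 h. SKI was 1.39-fold higher at 8 h and 1.91-fold at 48 h (log2 0.94 ± 0.08, limma voom adjusted p = 2.52e-09). The ratio of SKIL to SKI in TPM was 0.386 ± 0.072 in untreated cells at 0 h and 0.463 ± 0.047 at 48 h, but 1.67 ± 0.03 with TGFβ at 8 h and 1.81 ± 0.17 at 48 h (SD, n = 3).

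Both ubiquitin ligases were higher with TGFβ at 8, 24 and 48 h. SMURF1 (ENSG00000198742, chromosome 7, 99027440 to 99144108, − strand) had 19.9, 19.6 and 19.8 TPM untreated and 31.0, 31.5 and 31.5 TPM with TGFβ at 8 h. At 48 h it had 17.1, 15.6 and 16.9 TPM untreated and 35.4, 36.2 and 35.5 TPM with TGFβ. Within each of these groups the libraries lay close together and the arms were far apart. The difference was 1.66-fold at 8 h (log2 0.73 ± 0.05) and 2.14-fold at 48 h (log2 1.10 ± 0.05, limma voom adjusted p = 5.44e-14).

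SMURF2 (ENSG00000108854, chromosome 17, 64542282 to 64662307, − strand) binds SMAD7 and is carried by it to the receptor. It had 36.6, 34.5 and 35.9 TPM untreated and 40.7, 40.8 and 41.9 TPM with TGFβ at 8 h, and 31.3, 32.0 and 31.6 TPM untreated and 53.5, 55.0 and 57.3 TPM with TGFβ at 48 h. The arms were apart at each of these times. The arms differed by 0.24 ± 0.05 (log2) at 8 h, by 0.52 ± 0.05 at 24 h and by 0.83 ± 0.05 at 48 h (limma voom adjusted p = 0.000995, 3.36e-08 and 1.80e-11). The call at 8 h was lost on log2(TPM + 1) (limma-trend adjusted p = 0.0146) and with library totals in place of TMM factors (limma voom adjusted p = 0.0326).

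PMEPA1 had the largest difference of the 10 genes. PMEPA1 (ENSG00000124225, chromosome 20, 57648392 to 57711536, − strand) encodes a membrane protein that binds SMAD2 and SMAD3. In untreated cells it declined from 60.7, 50.3 and 57.7 TPM at 0 h to 27.2, 25.2 and 27.2 TPM at 48 h. Most of this decline fell between 8 h, with 49.5, 47.2 and 44.4 TPM, and 24 h, with 30.1, 23.2 and 27.0 TPM. That step crosses the file codes, so time and code cannot be told apart in it. Within the codes the untreated log2 change was −0.29 from 0 h to 8 h and −0.01 from 24 h to 48 h. With TGFβ it stood at 486.4, 484.6 and 456.0 TPM at 8 h, 537.1, 372.3 and 497.6 TPM at 24 h and 489.5, 501.8 and 465.7 TPM at 48 h. The TGFβ libraries showed no ordering by time, and replicate 2 at 24 h was the lowest of the 9. PMEPA1 was 9.90-fold higher at 8 h (log2 3.31 ± 0.04), 22.4-fold at 24 h and 23.1-fold at 48 h (log2 4.53 ± 0.04, limma voom adjusted p = 4.48e-25). By the p of the F-test PMEPA1 ranked 1st of 17454 genes, SMAD7 28th and SKIL 78th. The ratio of mean TPM at 48 h was 18.3, smaller than the fold from counts.

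**Figure D2:**
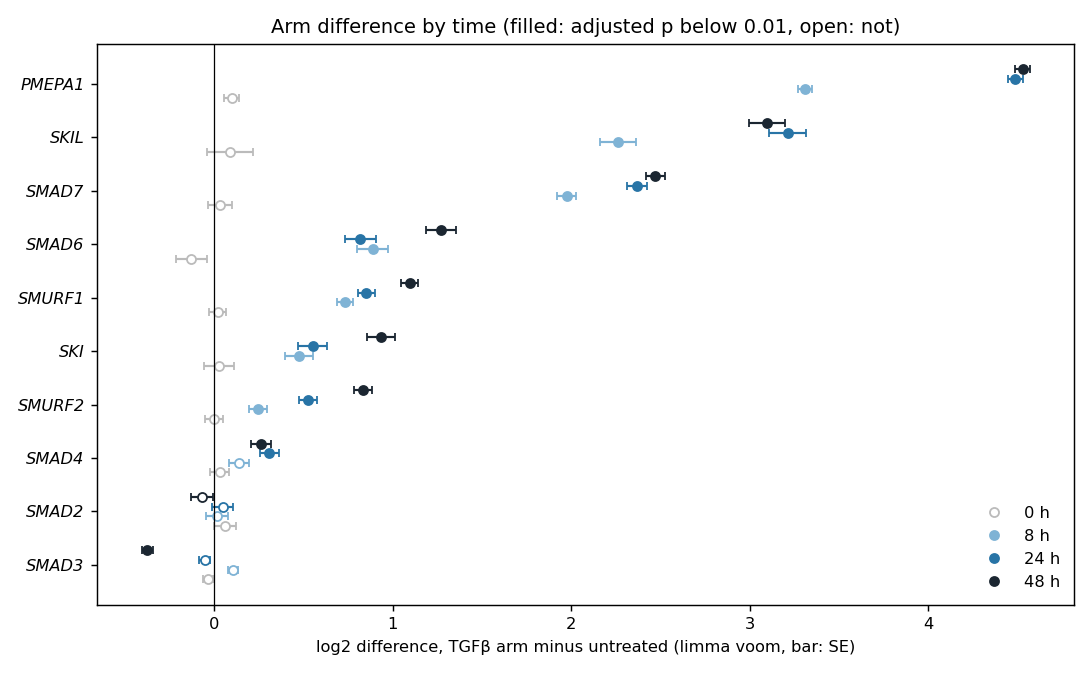
Log2 difference between the arms (x axis, TGFβ arm minus untreated, limma voom on counts, bars of 1 SE) for each gene (y axis, ordered by the mean over 8, 24 and 48 h), with shades from light to dark for 0, 8, 24 and 48 h and filled circles where the adjusted p is below 0.01. All 10 circles of 0 h are open and lie between −0.13 and 0.10, and SMAD3 at 48 h is the single filled circle left of 0.

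The steps between times were tested as changes of the arm difference from one time to the next. Whether the genes differed from each other in these steps was not tested. From 0 h to 8 h, where each arm keeps 1 file code so that a constant offset between codes cancels, 5 of the 10 genes passed, all upward, against 7.88% of all genes (5.05% upward). They were PMEPA1 (log2 change 3.21 ± 0.06), SKIL (2.18 ± 0.16), SMAD7 (1.94 ± 0.08), SMAD6 (1.02 ± 0.12) and SMURF1 (0.71 ± 0.07). SKI lay just outside at 0.45 ± 0.11 (limma voom adjusted p = 0.0104). From 8 h to 24 h 3 passed, all upward, against 6.7% of all genes (4.16% upward): PMEPA1 (1.18 ± 0.06), SKIL (0.95 ± 0.15) and SMAD7 (0.40 ± 0.08). This step crosses the file codes, and on log2(TPM + 1) SKIL alone passed, with PMEPA1 at 0.76 (limma-trend adjusted p = 0.0146). From 24 h to 48 h 2 passed against 9.11% (3.5% upward and 5.61% downward): SMAD3 (−0.32 ± 0.04) and SMURF2 (0.31 ± 0.07, limma voom adjusted p = 0.00526). SMAD3 did not pass on log2(TPM + 1) (−0.29, limma-trend adjusted p = 0.0337) or with length-scaled counts (−0.30, limma voom adjusted p = 0.0486), and SMURF2 did not with the 4 reference genes (0.31, limma voom adjusted p = 0.0783). SMAD6, SKI and SMURF1 missed the threshold there with changes of 0.45 ± 0.12, 0.39 ± 0.11 and 0.24 ± 0.07 and adjusted p of 0.0126, 0.0213 and 0.0163, all from limma voom. SMURF2 had missed it from 0 h to 8 h (0.25 ± 0.07, limma voom adjusted p = 0.0267) and from 8 h to 24 h (0.28 ± 0.07, adjusted p = 0.0124). SMAD3 had missed it in the same steps (0.14 ± 0.04 and −0.16 ± 0.04, limma voom adjusted p = 0.0309 and 0.0170).

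The untreated arm moved as well. From 0 h to 8 h without TGFβ 5 of the 10 genes changed, against 25.9% of all genes (13.2% upward and 12.7% downward). SMAD6 (log2 −0.82 ± 0.09), SMURF1 (−0.42 ± 0.05), SMAD3 (−0.38 ± 0.03) and PMEPA1 (−0.29 ± 0.04) fell and SKIL rose by 0.94 ± 0.12. The call for PMEPA1 was lost on log2(TPM + 1) (limma-trend adjusted p = 0.177) and with length-scaled counts (limma voom adjusted p = 0.17). In the TGFβ arm over the same hours 6 changed, against 33.8% of all genes (17.5% upward and 16.3% downward). SKIL (3.11 ± 0.11), PMEPA1 (2.92 ± 0.04), SMAD7 (2.10 ± 0.06), SKI (0.62 ± 0.08) and SMURF1 (0.29 ± 0.05) rose, and SMAD3 fell by 0.23 on the log2 scale. SMAD6 in that arm moved by 0.20 ± 0.08 (limma voom adjusted p = 0.0619) and did not pass. From 24 h to 48 h SMAD7 alone passed in untreated cells (0.26 ± 0.06), against 28.4% of all genes (14.8% upward). With TGFβ 4 passed, against 25.8% of all genes (12.4% upward and 13.4% downward): SKI (0.53 ± 0.08), SMAD6 (0.38 ± 0.08) and SMAD7 (0.35 ± 0.05) upward and SMAD3 (−0.42 ± 0.03) downward. SMAD6 did not pass on log2(TPM + 1) (limma-trend adjusted p = 0.0253) or with length-scaled counts (limma voom adjusted p = 0.0616), nor did SMAD7 in untreated cells with length-scaled counts (adjusted p = 0.0425). With the 4 reference genes SMAD3 in the TGFβ arm was at −0.02 (limma voom adjusted p = 0.616), where the median of all genes was 0.40.

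Compared by level per length, the order of the genes differed between the arms. In untreated cells at 0 h SMAD3 led with 211.6 ± 13.8 TPM, followed by SMAD2 (113.3 ± 2.9), SMAD4 (69.5 ± 5.2), PMEPA1 (56.3 ± 5.3), SMURF2 (40.8 ± 0.8), SMURF1 (25.0 ± 1.2) and SKI (18.5 ± 1.4), each apart from its neighbours in all libraries. SKIL (7.09 ± 0.84), SMAD7 (6.81 ± 0.91) and SMAD6 (5.93 ± 0.56) closed the order and overlapped. In untreated cells at 24 h and 48 h SMAD2 and SMAD3 overlapped at the top. With TGFβ PMEPA1 led from 8 h on, at 485.6 ± 18.4 TPM at 48 h against 114.7 ± 2.1 TPM for SMAD2 in second place. By then SMAD3 (82.3 ± 1.9), SKIL (81.5 ± 4.4) and SMAD4 (77.6 ± 2.3) overlapped with their neighbours, as did SMAD7 (45.6 ± 1.7) and SKI (45.0 ± 1.7), all in TPM ± SD with n = 3. The ratio of SMAD7 to SMAD3 in TPM was 0.032 ± 0.005 in untreated cells at 0 h, 0.067 ± 0.003 in untreated cells at 48 h and 0.554 ± 0.034 with TGFβ at 48 h.

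**Figure D3:**
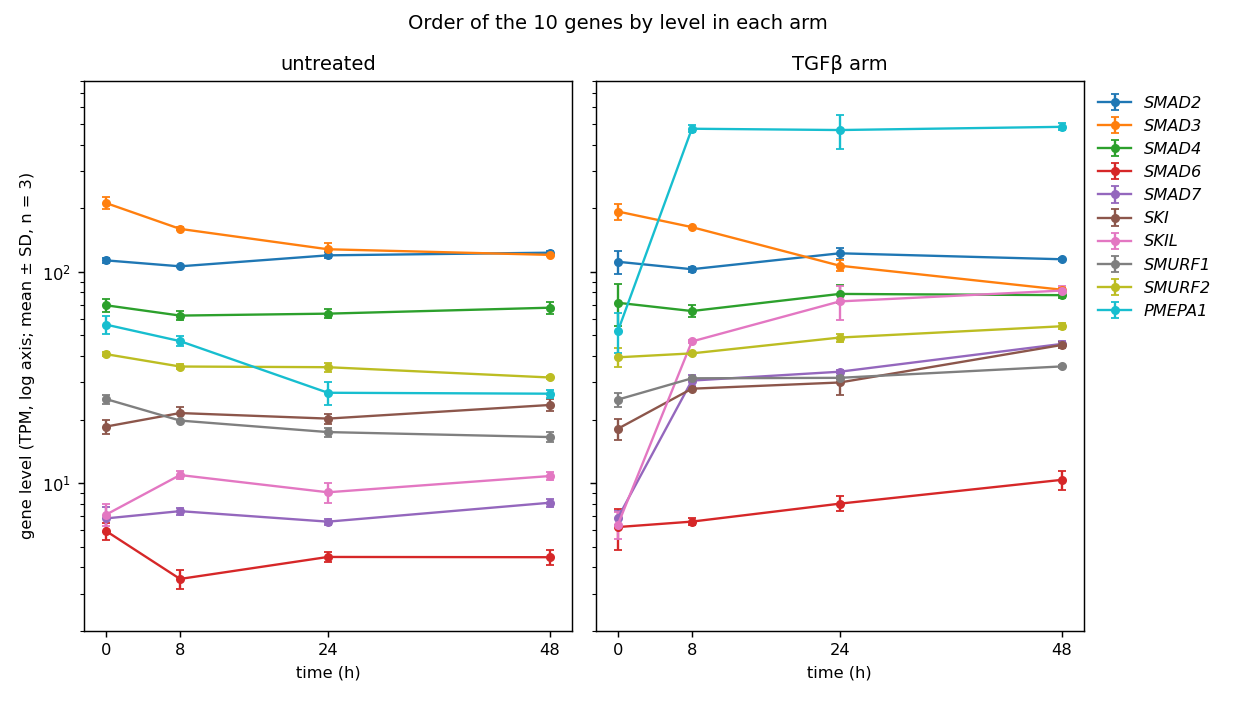
Mean level of each gene in TPM (y axis, log scale, bars of 1 SD, n = 3) against time in hours, untreated on the left and the TGFβ arm on the right. PMEPA1 crosses above SMAD3 and SMAD2 between 0 h and 8 h on the right, and SKIL and SMAD7 climb from below 8 TPM to the range of the other genes.

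The stretches before the start sites of the inhibitors with the largest differences, and of SMAD6, are printed here because SMAD3 and SMAD4 recognise short DNA motifs that can be looked for in them. They are the 250 bases before the start site of the main transcript, from RefSeq on GRCh38.p14, written 5′ to 3′ on the strand of the gene. Capitals mark GTCTAGAC, the palindrome known as the SMAD-binding element, and its shorter form CAGAC with the reverse complement GTCTG. SMAD6 is at chr15:66701986-66702235, SMAD7 at chr18:48950966-48951215, SKIL at chr3:170357465-170357714 and PMEPA1 at chr20:57710016-57710265.
SMAD6: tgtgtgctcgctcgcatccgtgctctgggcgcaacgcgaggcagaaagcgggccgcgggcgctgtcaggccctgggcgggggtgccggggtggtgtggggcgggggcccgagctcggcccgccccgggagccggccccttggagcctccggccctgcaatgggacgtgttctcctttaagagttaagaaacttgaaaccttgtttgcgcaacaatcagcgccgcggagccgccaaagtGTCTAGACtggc
SMAD7: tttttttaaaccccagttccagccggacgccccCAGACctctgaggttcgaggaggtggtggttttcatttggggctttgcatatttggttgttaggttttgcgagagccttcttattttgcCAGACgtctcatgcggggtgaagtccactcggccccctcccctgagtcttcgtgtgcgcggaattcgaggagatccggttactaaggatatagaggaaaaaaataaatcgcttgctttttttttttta
SKIL: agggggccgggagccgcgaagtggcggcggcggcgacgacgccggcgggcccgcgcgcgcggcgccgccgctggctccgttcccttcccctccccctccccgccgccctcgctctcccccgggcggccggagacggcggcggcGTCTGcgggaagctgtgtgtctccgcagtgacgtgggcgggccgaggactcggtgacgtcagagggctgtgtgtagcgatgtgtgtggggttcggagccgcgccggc
PMEPA1: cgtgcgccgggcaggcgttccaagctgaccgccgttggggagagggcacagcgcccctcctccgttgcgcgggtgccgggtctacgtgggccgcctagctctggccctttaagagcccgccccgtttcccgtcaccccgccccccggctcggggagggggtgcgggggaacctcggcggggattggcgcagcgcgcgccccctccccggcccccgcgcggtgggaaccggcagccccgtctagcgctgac

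Over windows of 300 bases, 250 before and 50 after the start, 9 of the 10 genes had an entry for the main transcript and SKI had none. The palindrome occurred in the SMAD6 window alone, 12 bases before the start, and in 0.202% of all 35116 RefSeq windows. CAGAC or GTCTG occurred in 6 of the 9 windows, against 45.3% of all windows. SMAD7 held it 217 and 128 bases before the start, SKIL 107 bases before and SMURF1 204 bases before, while SMURF2 held it at the base before the start and SMAD3 and PMEPA1 within the 50 bases after it. The windows of SMAD2, SMAD4 and SMAD6 held neither short form. GTCTAGAC does not contain CAGAC or GTCTG, so the counts do not overlap. These are matches of letters, and binding was not measured here.

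No transcript of the 10 genes moved apart from the rest of its gene in both transcript tests, and some did in 1 of them. Of 72 transcripts of the 10 genes with enough counts, 0 passed both transcript tests at 8, 24 or 48 h, where 0.00764%, 0.13% and 0.242% of 78502 transcripts did. At shares this low, 0 of 72 tells little about these genes. By diffSplice alone 0, 1 and 1 passed, against 0.208%, 0.569% and 0.735% of all transcripts, and 7, 7 and 14 had an unadjusted p under 0.05. By limma on the log2 ratio of a transcript to the rest of its gene 0, 1 and 3 passed, against 0.0241%, 0.246% and 0.539% of 78791 transcripts, and 6, 8 and 15 had an unadjusted p under 0.05. For both tests the share of all transcripts with an unadjusted p under 0.05 was not counted, so those counts have no comparison. The diffSplice calls were SMAD3-201 at 24 h (log2 0.59, adjusted p = 0.00474) and SMURF1-201 at 48 h (−1.87, adjusted p = 0.00222). The log2 ratio test called SMAD3-207 at 24 h (−0.84, limma adjusted p = 0.00797) and at 48 h (−1.16, adjusted p = 0.000196), and at 48 h SMAD3-210 (−2.28, adjusted p = 0.00124) and PMEPA1-208 (adjusted p = 1.82e-05), which were lower relative to the rest of their genes with TGFβ. SMAD3-201, the main SMAD3 transcript, made up 55.4% ± 4.9 of the gene's TPM in untreated cells at 24 h and 64.8% ± 6.7 with TGFβ (SD, n = 3). Its own level was 69.9, 71.5 and 70.3 TPM untreated and 68.2, 72.1 and 66.6 TPM with TGFβ at 24 h, and these overlap. As assigned by kallisto, the lower SMAD3 TPM at that time lay in the other SMAD3 transcripts. SMAD3-201 did not pass the log2 ratio test there (limma adjusted p = 0.501), and the uncertainty of the assignment is in neither test.

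For several genes much of the TPM was assigned to short or non-coding transcripts. SMAD4-213 and SMAD4-216, both annotated as targets of nonsense-mediated decay, held 30.8% and 30.3% of SMAD4 TPM in untreated cells at 48 h, while the main coding transcript SMAD4-201 held 4.97%. SMAD7-201, the main coding transcript, held 54.5% ± 3.0 of SMAD7 TPM in untreated cells at 48 h and 48.1% ± 2.1 with TGFβ, and the retained-intron transcript SMAD7-202 held 21.3% and 28.1%. SKIL-204 held 29.2% ± 0.7 of SKIL TPM in untreated cells at 0 h, 43.4% ± 1.3 at 48 h and 49.8% ± 2.7 with TGFβ. The comparison of 0 h with 48 h crosses the file codes. Between the arms at 48 h SKIL-204 passed neither transcript test (adjusted p = 0.798 by diffSplice and 0.683 by limma on the log2 ratio). PMEPA1 was spread over PMEPA1-202, PMEPA1-203 and PMEPA1-204, at 26.0%, 26.5% and 33.7% of its TPM with TGFβ at 48 h. PMEPA1-208, for which no coding sequence is defined, was listed at 60.4, 67.2 and 52.8 TPM with TGFβ at 8 h and at 0 in all 3 libraries at 48 h. SKI-201 and SMURF1-202 each held at least 88.6% of the TPM of their gene in every group.

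For 4 of the genes the genes most like them over the 24 libraries were taken by Pearson correlation of log2(TPM + 1). The 24 points share 8 groups, so the correlations mostly follow the group means. SMAD7 was most like WNT7A (r = 0.990), AQP1 (0.989) and ITGB3 (0.989), and SKIL most like FOXS1 (0.989), NET1 (0.989) and ITGB3 (0.987). WNT7A was near the floor, at 0.056 TPM in untreated cells at 0 h and 1.12 TPM with TGFβ at 48 h. ITGB3, an integrin subunit, stood at 9.34 TPM in untreated cells at 0 h, 14.3 TPM at 48 h and 136.1 TPM with TGFβ at 48 h. PMEPA1 was most like KCNG1, EPHB2 and ACKR3, each at r = 0.991, and these also fell in TPM from 0 h to 48 h without TGFβ, EPHB2 from 90.6 to 47.6 TPM. Among the genes most like SMAD3 were ADORA2B (0.982) and PGAM1 (0.978), with ADORA2B going from 36.8 TPM in untreated cells at 0 h to 17.0 TPM at 48 h and 10.2 TPM with TGFβ at 48 h.

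Other genes of the pathway are given by 4 lists, to be read against the 42.5% of all genes that passed the F-test (21% higher and 21.5% lower). The lists were chosen with earlier results of these data known. Of 13 tested relatives, 3 were higher and 5 lower, with a median log2 difference of 0.09. LDLRAD4, which resembles PMEPA1 and also binds SMADs, had 0.934, 0.557 and 0.613 TPM untreated and 2.90, 3.75 and 3.91 TPM with TGFβ at 48 h, a log2 difference of 3.23 there by limma voom. The SMADs of the BMP branch went apart: SMAD9 was lower at 48 h (log2 −1.48, 2.67, 2.99 and 2.76 TPM untreated against 1.44, 0.969 and 0.970 TPM), SMAD1 was higher (0.35) and SMAD5 did not pass the F-test (limma voom adjusted p = 0.0204). Of the ligases of the SMURF family, NEDD4 was higher in counts (0.67 at 48 h). The gap was smaller in TPM, with 81.2, 81.4 and 83.9 TPM untreated and 87.3, 90.9 and 94.7 TPM with TGFβ. NEDD4L, which acts on SMAD2 and SMAD3, was lower (−0.31), as was HECW1 (−0.55). The repressor DACH1 was lower too (−0.69 at 48 h).

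Of 30 other regulators of receptors and SMADs, 8 were higher, 5 were lower and 17 did not pass, with a median of 0.03, so the share called was near that of all genes. The pseudoreceptor BAMBI, itself known as a target of BMP and TGFβ, was lower at 48 h (−0.55, with 11.9, 11.5 and 12.6 TPM untreated and 8.75, 7.80 and 7.66 TPM with TGFβ), and ARRB2 (−0.85) and TOB1 (−0.49) were lower as well. LEMD3, which binds SMADs at the nuclear envelope, was higher by 0.23 at 48 h, and FKBP1A, a protein that binds the type I receptor, by 0.36. Of 23 partners of SMADs in transcription, 9 were higher, 5 were lower and 9 did not pass, with a median of 0.05. At 48 h the log2 difference was 1.09 for RUNX1, −0.89 for RUNX2 and 1.49 for JUNB, 3 transcription factors that bind SMADs.

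Of 25 tested textbook targets 19 were higher and 5 lower, with a median of 1.84 against −0.02 for all tested genes. As this list was chosen with earlier results known, its share and median are not independent of these data. ID3 was lower, with 137.2, 121.9 and 133.6 TPM untreated and 15.6, 18.2 and 19.4 TPM with TGFβ at 48 h. COL1A1 (3.89 at 48 h) and PTHLH (4.66 at 48 h) were higher in the limma voom test.

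**Figure D4:**
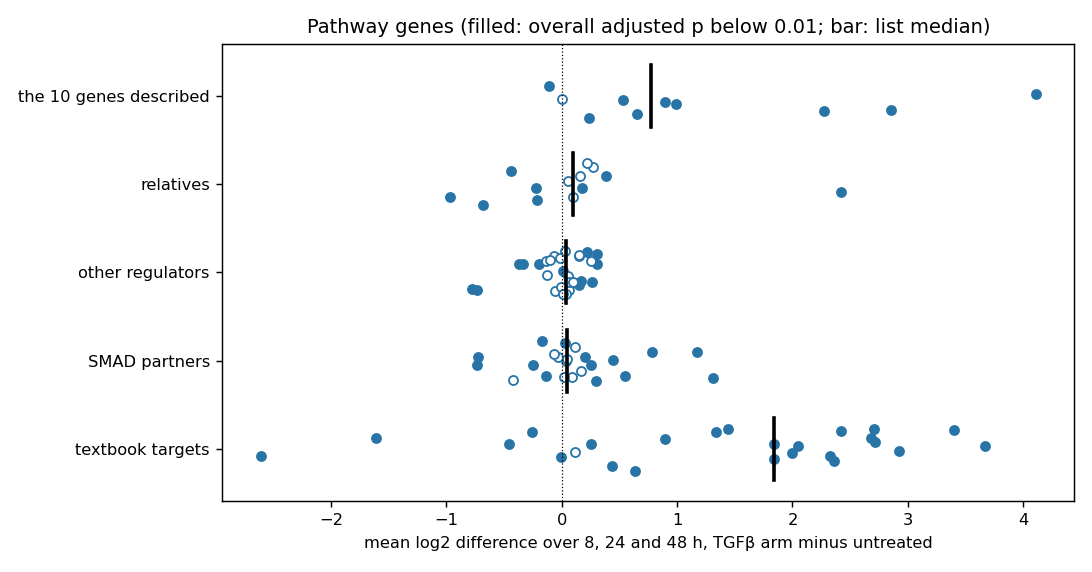
Mean log2 difference over 8, 24 and 48 h (x axis, TGFβ arm minus untreated, limma voom) of each tested gene in 5 groups (y axis, points spread at random within a row), filled where the F-test passed and with a bar at the median of each group. The medians are 0.77 for the 10 genes, 0.09 for relatives, 0.03 for other regulators, 0.05 for SMAD partners and 1.84 for textbook targets. The 10 genes and the lists were chosen with earlier results of these data known.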

How the data were processed

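Total RNA of SK-MES1 cells was sequenced on a HiSeq 4000. The authors quantified the reads with kallisto 0.43.0 against GRCh38 transcripts (Ensembl release 79) and deposited 1 table per library of 173259 transcripts, with replicates not pooled. The estimated counts in the deposited tables are reads assigned to each transcript by kallisto, without normalization. The TPM deposited by the authors are those counts per effective length, scaled to 1 total. The deposited effective lengths served for length-scaled counts alone. Strandedness is not given in the sources used here.

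Transcripts were assigned to genes with GENCODE release 44, which matched 155518 (89.8%) of them and 94.82% to 95.18% of the counts of a library. The other 17741 were left out. Counts were added up per gene and rounded to whole numbers. Genes with at least 10 counts in at least 3 libraries were tested with limma 3.58.1 in R 4.3.3 (voom weights, TMM factors, 8 group means over all 24 libraries). The threshold was a Benjamini-Hochberg adjusted p of 0.01 over 17454 genes, two-sided. Transcripts were tested with diffSplice on 78502 transcripts. In simulated data diffSplice made false calls, so a second test on log2 ratios was added after seeing the data, and a call needed both. The scripts were tested on simulated data. The alternatives used edgeR 4.0.16, DESeq2 1.42.0, other scalings and units, another filter and threshold, a replicate block and each library left out.

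All 10 members are named, with up to 3 like genes for each of 4 members, up to 4 genes per direction of each pathway list and transcripts with at least 10% of a gene's TPM. Some genes that this rule would name are not reported here. The members and lists were chosen with earlier results of these data known. The transcripts SMURF1-201, SMAD4-201, SMAD3-207 and SMAD3-210 and the lists' SMAD5 were named after their values were seen. Libraries held 46613589 to 77964234 estimated counts, and the SEs of the fits include the spread between replicates.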

Additional observations from a re-analysis of the deposited data

Results flagged for a closer look

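For 7 of the 10 genes the difference between the arms itself differed between time points by the limma voom test of that change. Of all tested genes 7.88% passed from 0 h to 8 h, 6.7% from 8 h to 24 h and 9.11% from 24 h to 48 h. The share of all genes that passed in any step was not counted. The values follow on the log2 scale. From 0 h to 8 h the arm difference changed by 3.21 for PMEPA1, 2.18 for SKIL, 1.94 for SMAD7, 1.02 for SMAD6 and 0.71 for SMURF1. From 8 h to 24 h it changed by 1.18 for PMEPA1, 0.95 for SKIL and 0.40 for SMAD7. For PMEPA1 the untreated level fell over these hours while the TGFβ arm stayed nearly level. From 24 h to 48 h the arm difference changed by −0.32 for SMAD3 and by 0.31 for SMURF2. The first and the last step lie within the file codes of each arm, and the middle step crosses them. In the middle step a change of the code and a change of either arm with time cannot be told apart. Without the TGFβ libraries that lay farthest from their groups, the steps of SKIL were 2.30 (replicate 2 at 0 h left out) and 0.82 (replicate 2 at 24 h left out).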

How the results depend on the processing

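The counts of genes that differed between the arms at 0, 24 and 48 h and in the F-test (0, 8, 9 and 9 of 10) were the same with each library left out, and that at 8 h ranged from 7 to 8. Counts of smaller steps were less stable. The shares of all genes called under each alternative are not given here, so these counts show stability alone. Scaling by the 4 reference genes also moved the median of all genes, as given below. The count from 0 h to 8 h (5) became 8 at an adjusted p of 0.05 and 5 to 7 with a library left out. That from 8 h to 24 h (3) became 5 with DESeq2, with the replicate block set per time point and at 0.05, 7 with the 4 reference genes and 1 on either TPM scale and with length-scaled counts, and 3 to 5 with a library left out (5 without untreated replicate 2 at 24 h or TGFβ replicate 1 at 0 h). That from 24 h to 48 h (2) became 5 with DESeq2, with either replicate block and at 0.05, 4 with library totals, 1 on either TPM scale and with length-scaled counts (SMAD3 lost), 1 in a fit of the tested time points alone (SMURF2 lost), and 1 to 3 with a library left out. It was 1 without untreated replicate 3 at 24 h, without untreated replicate 1 or 2 at 48 h, without TGFβ replicate 3 at 24 h and without any 1 TGFβ library at 48 h, each time with SMAD3 passing still. The untreated change from 24 h to 48 h (1) became 2 with DESeq2 and with either replicate block, 9 with the 4 reference genes, 4 at 0.05 and 0 to 2 with a library left out (0 without untreated replicate 3 at 48 h), and that of the TGFβ arm (4) became 8 with the 4 reference genes. For transcripts the counts here are of diffSplice alone, and 0 passed both transcript tests. The count at 24 h (1) became 0 with at least 10 counts in all libraries and 0 to 1 with a library left out. That at 48 h (1) became 3 by the log2 ratio and 0 to 1 with a library left out.

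The sign of small differences depended on the scaling. For SMAD2 at 8 h and 24 h it was −0.0691 and −0.0484 with library totals and −0.0257 and −0.00942 with upper-quartile factors, −0.0454 and −0.0458 at 8 h on log2(TPM + 1) and log2(TPM + 0.1), and −0.0171 at 24 h without TGFβ replicate 2. Its mean over the times turned from −0.0021 to 0.00104 with length-scaled counts and ranged from −0.0234 to 0.0149 with a library left out. With the 4 reference genes SMAD2 was 0.28 at 48 h and 0.26 in the mean of the times, SMAD3 was 0.30 at 24 h, 0.16 in the mean and 0.10 for the step from 8 h to 24 h, and the untreated changes from 24 h to 48 h were 0.30 for SMAD3, 0.25 for SMURF1 and 0.24 for SMURF2. That scaling moved the median of all genes to 0.34 at 24 h and 48 h, 0.25 in the mean, 0.26 for the step from 8 h to 24 h and 0.40 for the untreated change. At 0 h SMAD6 and PMEPA1 were 0.0397 and −0.118 on log2(TPM + 1), 0.0431 and −0.12 on log2(TPM + 0.1) and 0.0765 and −0.0827 with length-scaled counts. The cause was not tested.

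The replicate numbers were not taken to pair the libraries, since the correlations of same-numbered libraries between the arms ran from −0.053 to 0.271 and not every library was closest to its own number. At 0 h untreated replicates 1, 2 and 3 were each closest to their own number, as were replicates 1 and 2 at 24 h. At 48 h replicate 3 alone was, and at 8 h none. No test asked whether same-numbered libraries share an effect at 0 h and 24 h, but the fits with a replicate block allowed for one. The counts of steps that these fits changed are given above. A replicate block changed the counts of arm differences at 0, 8, 24 and 48 h by less than 1.5 times. Depth limited no member: the fewest counts in a library were 440, for SMAD7.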
